A study of Mus musculus with 6 samples.

Results

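The clustered histone genes were compared in CD45+ cells sorted from mouse spleen or from mesenteric lymph node (mLN). They were taken as every gene of the 6 deposited tables whose identifier maps in GENCODE M21 to a symbol beginning Hist1h, Hist2h, Hist3h or Hist4h, which gave 70 of 55487 genes. Of these, 6 encode the linker histone H1, 20 the core histone H2A, 19 H2B, 12 H3 and 13 H4, and 3 of the 70 are annotated as pseudogenes. CD45 is a surface protein of blood-lineage cells, and the labels call the sorted cells total hematopoietic. The mice were wild-type C57BL6/J in both groups, and the cells were freshly prepared, with no other treatment given. There were 3 spleen libraries and 3 mLN libraries of polyA RNA, made with a strand-keeping kit. Age and sex are not in the labels, nor whether a library stands for 1 animal, several, or a repeat of the same one. The p-values therefore measure only the spread between these libraries, which may be technical.

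Core histones form the spool around which DNA is wound, and H1 binds the DNA between spools. The clustered genes are known as replication-dependent: their RNA accumulates while DNA is copied and is removed afterwards. Most of that RNA is not polyadenylated but ends just after a short stem-loop that is bound by Slbp, the stem-loop binding protein. Some clustered genes also have a downstream polyadenylation signal, and Hist1h1c, Hist1h2bc and Hist2h2be are known to give polyadenylated RNA in cells that have stopped dividing. A polyA library therefore samples only a fraction of histone RNA, and levels below are levels of the RNA that this selection kept.

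The stem-loop was visible in the annotated transcripts and is shown here because it is the known 3′ end of these RNAs. Each sequence reads 5′ to 3′ on the RNA strand, as DNA letters from the GENCODE M21 transcripts (build GRCm38), with the 16-base stem-loop in capitals and up to 5 bases on each side. The genes were chosen to show the classes, the loop and stem variants, and the genes that the results turn on.
Hist1h1c (H1, chr13:23739507-23739532, + strand): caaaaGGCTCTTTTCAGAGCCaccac
Hist1h1e (H1, chr13:23621777-23621802, - strand): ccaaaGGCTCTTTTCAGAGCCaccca
Hist1h2ap (H2A, chr13:21833026-21833049, - strand): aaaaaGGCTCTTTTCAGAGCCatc
Hist3h2a (H2A, chr11:58955167-58955192, + strand): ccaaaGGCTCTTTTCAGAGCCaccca
Hist1h2bj (H2B, chr13:22043633-22043658, + strand): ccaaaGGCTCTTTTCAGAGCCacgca
Hist1h3c (H3, chr13:23745042-23745067, - strand): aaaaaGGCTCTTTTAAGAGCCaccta
Hist1h4i (H4, chr13:22040961-22040986, - strand): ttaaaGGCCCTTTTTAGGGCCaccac
Hist1h4n (H4, chr13:21831793-21831818, - strand): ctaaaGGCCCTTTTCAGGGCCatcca

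A stem of 6 bases that begins GG, a loop of 4 bases that begins with T, and the exact reverse complement of the stem were found within 150 bases after the stop codon in 46 of the 70 genes. The same search matched 0.165% of the other protein-coding genes. All 34 matched genes of the H1, H2A, H2B and H3 classes had the same stem sequence, the one shown for Hist1h1c. None of the 12 matched H4 genes had it: 10 had the stem shown for Hist1h4i, and 2, Hist1h4b and Hist1h4j, had another. The stem-loop began 21 to 58 bases after the stop codon, with a median of 31. For 13 of the 24 genes without a match the annotated transcript stopped at the stop codon itself, so the stretch was not in the sequence searched.

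The genes also differed in how far the annotation runs beyond the stop codon. A 3′ UTR of at least 150 bases was annotated for 28 genes, called long here, and the other 42 had a shorter one or none. A polyadenylation signal (AATAAA or ATTAAA) lay in the last 50 bases of a transcript in 16 of the 28 long genes and in 1 of the 42 others. Hist1h2ap ended 3 bases after its stem-loop. Hist1h1c ran 840 bases past it, Hist1h1e 1153 and Hist3h2a 1643. Hist2h2be, with a 3′ UTR of 2192 bases and a signal at its end, had no stem-loop match in the window searched, and neither had Hist1h2bc.

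The libraries held 12584244 to 18119551 expected counts, of which 2259 to 5021 fell on the histone genes, or 0.0161% to 0.0305%. Levels are in CPM, counts per 1000000 after TMM scaling (trimmed mean of M-values), and errors given with ± are SD over the 3 libraries of a tissue. Ptprc, the gene of CD45 itself, was at 2161 to 2235 CPM in spleen and 2652 to 2715 in mLN. Of 8 genes used as markers of cells outside the blood lineage, the summed level was 211.4 to 217.5 CPM in spleen and 211.6 to 232.8 in mLN. Among these genes Pdpn was at 0 in every library and Krt8 at 0 in mLN. The list holds Pecam1, which blood-lineage cells can also express, so the sum does not measure other cells alone. Of the 70 histone genes, 64 had a count in some library, 48 had fewer than 100 over all 6 libraries, and 31 passed the filter on low counts and were tested. The 6 with no count were Hist1h2aa and Hist1h2ba, known as testis forms, Hist1h2ao, Hist2h3c1 and the pseudogenes Hist1h2aj and Hist1h2al. Hist1h1t, also a testis form, had 1 count, in spleen replicate 1.

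Clustered histone RNA was lower in mLN than in spleen. Summed over all 70 genes it was 288.5, 299.9 and 277.1 CPM in the 3 spleen libraries and 163.6, 183.3 and 183.0 CPM in the 3 mLN libraries. Every mLN library was below every spleen library, and the mean in spleen was 1.63 times that in mLN. By edgeR's quasi-likelihood test 11 of the 31 tested genes fell in mLN and none rose. The 11 are 35.5% of those tested, and of all 14427 genes tested 23.8% fell and 21.8% rose. Adjusted p-values here and below are from this test with Benjamini-Hochberg adjustment over all genes. No histone gene was higher at an unadjusted p under 0.05 either, 14 were lower at that level, and DESeq2 called 9 lower and none higher. A gene with few counts passes the filter through the tissue where it is higher, so the 31 are not a neutral sample of the 70. The median log2 fold change (mLN over spleen) of the 31 was -0.91, against -0.00 for all genes tested. In a bulk sample, fewer cells of a type and less RNA per cell cannot be told apart.

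**Figure D1:**
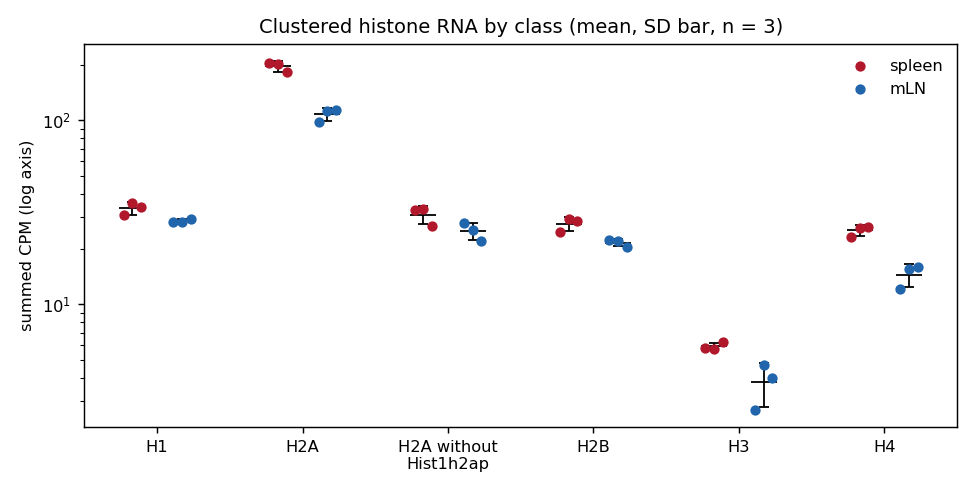
Summed CPM of the clustered histone genes of each class in each library (log axis; spleen red, mLN blue, bars mean and SD, n = 3), with H2A also shown without Hist1h2ap. The mLN libraries lie below the spleen libraries in each class as a whole, while without Hist1h2ap the H2A ranges overlap.

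H2A, a core histone that pairs with H2B, held most of the signal. Its summed level was 204.1, 203.4 and 182.1 CPM in spleen and 98.5, 112.9 and 113.5 CPM in mLN. H4, which pairs with H3, was at 23.3, 26.0 and 26.5 CPM in spleen and 12.1, 15.6 and 15.9 in mLN. These were the 2 classes with the widest gap, at log2 ratios of -0.86 and -0.80. H3 was the scarcest class, at 5.81, 5.73 and 6.22 CPM in spleen and 2.67, 4.67 and 3.97 in mLN, a log2 ratio of -0.65. H2B stood at 24.8, 29.2 and 28.5 CPM in spleen and 22.4, 22.1 and 20.6 in mLN (-0.34), and H1 at 30.5, 35.7 and 33.8 in spleen and 28.0, 28.1 and 29.1 in mLN (-0.23). The 2 tissues did not overlap in any of the 5 sums, which were not tested because the genes were chosen with earlier results known. As a share of all histone counts, H1 made up 11.6 ± 0.862% in spleen and 16.1 ± 0.923% in mLN, and H2A 68.1 ± 2.50% and 61.3 ± 0.968%.

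A single gene, Hist1h2ap, accounted for most of the H2A level (chromosome 13, 21833026 to 21833507, GRCm38, minus strand, a single exon). It stood at 171.7, 170.5 and 155.4 CPM in spleen and at 70.8, 87.7 and 91.3 CPM in mLN. The 2 tissues were well apart, and Hist1h2ap fell by 0.996 on the log2 scale (SE 0.0994, adjusted p = 0.000291). It took 57.5 ± 1.80% of all histone counts in spleen and 47.0 ± 3.42% in mLN. Per length, its mean over the 6 libraries was 696.4 TPM (transcripts per 1000000, which corrects for length), and the next genes were Hist2h2aa2 at 41.8, Hist1h4n at 29.8 and Hist1h1c at 26.5 TPM. TPM values of genes this short lean on the effective length, since the fragments were 213 to 230 bases long by the tables' own lengths. Only 6.9% of the 50-base stretches of Hist1h2ap occur in no other annotated gene, and 93.1% also occur in Hist1h2ao, which was listed at 0 in all 6 libraries. The value of Hist1h2ap is therefore the share of ambiguous reads that the counting program assigned to it. Without Hist1h2ap the other 19 H2A genes summed to 32.4, 32.8 and 26.7 CPM in spleen and 27.7, 25.3 and 22.2 in mLN, where the ranges overlapped. Without it, all histone genes summed to 122.7 ± 6.32 CPM in spleen and 93.4 ± 2.06 in mLN, a log2 ratio of -0.39 in place of -0.71.

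Of the other H2A genes, Hist1h2ag fell (adjusted p = 0.0453, log2 fold change -1.60 with SE 0.646). It stood at 0.747, 1.71 and 2.03 CPM in spleen and 0.734, 0 and 0.810 in mLN, so the tissues overlapped. It was no longer called by DESeq2 (adjusted p = 0.332), with an offset for effective length (0.163), or without spleen replicate 2 (0.148), spleen replicate 3 (0.2) or mLN replicate 2 (0.188), where its log2 fold change was -0.95. Only 21.1% of the 50-base stretches of Hist1h2ag are unique and 71.8% also occur in Hist1h2ao, so its value depends on how shared reads were assigned. Hist2h2aa1 and Hist2h2aa2 are near copies, and no 50-base stretch of Hist2h2aa2 was unique to it, so their sum is the safer value. Together they were at 12.9 ± 2.88 CPM in spleen and 10.4 ± 2.38 in mLN, and the ranges overlapped. Hist3h2a, the H2A gene on chromosome 11, was at 9.95, 10.2 and 8.37 CPM in spleen and 12.1, 9.67 and 9.88 in mLN (log2 fold change 0.15, adjusted p = 0.457). Of its 50-base stretches 31.5% are shared with Trim17.

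**Figure D2:**
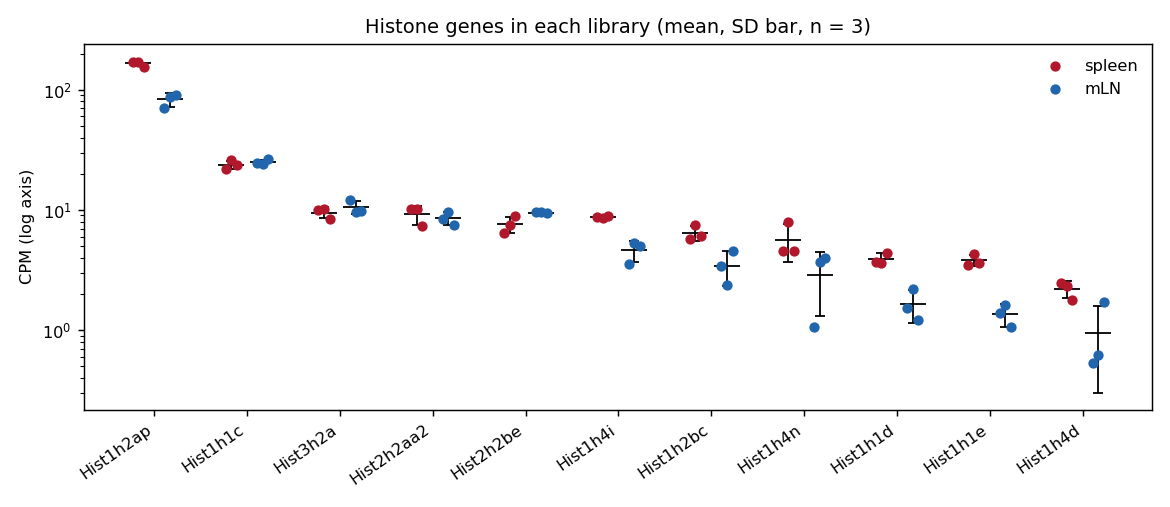
CPM of 11 histone genes in each library (log axis; spleen red, mLN blue, bars mean and SD, n = 3). Hist1h2ap, Hist1h4i, Hist1h2bc, Hist1h1d, Hist1h1e, Hist1h4n and Hist1h4d have all mLN points below all spleen points, Hist1h1c, Hist3h2a and Hist2h2aa2 overlap, and Hist2h2be has them above.

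The linker histone genes split. Hist1h1c, the most abundant H1 gene by TPM (chromosome 13, 23738808 to 23740367), was at 22.1, 25.9 and 23.6 CPM in spleen and 24.4, 24.0 and 26.3 CPM in mLN. The tissues overlapped, with a log2 fold change of 0.06 (SE 0.0952, adjusted p = 0.653). The other 3 tested H1 genes fell. Hist1h1e was at 3.51, 4.26 and 3.65 CPM in spleen and 1.40, 1.63 and 1.05 in mLN (adjusted p = 0.000189, log2 fold change -1.46 with SE 0.319). Hist1h1d was at 3.68, 3.66 and 4.42 CPM in spleen and 1.54, 2.19 and 1.22 in mLN (log2 fold change -1.22, adjusted p = 0.00107). Hist1h1b, whose annotated transcript ends at the stop codon, had 12, 19 and 26 counts in spleen and 2, 3 and 3 in mLN, a log2 fold change of -2.62 (SE 0.65, adjusted p = 0.000894). These 3 genes were low, and Hist1h1c held most of the H1 counts, so the summed H1 level moved least of the 5 classes. Hist1h1a had 8, 12 and 11 counts in spleen and 8, 2 and 3 in mLN and was not tested. Hist1h1e shares 23.8% of its 50-base stretches with a transcript of Hist1h2be, while all those of Hist1h1b and 97.7% of those of Hist1h1d were unique.

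H2B genes fell only in part. Hist1h2bc was at 5.69, 7.43 and 6.10 CPM in spleen and 3.40, 2.36 and 4.54 in mLN, with no overlap (adjusted p = 0.00109, log2 fold change -0.92 with SE 0.233). Hist1h2bj was at 1.09, 1.40 and 0.837 CPM in spleen and 0.133, 0.506 and 0.0810 in mLN (log2 fold change -2.07, adjusted p = 0.0058), a call that was lost without spleen replicate 2 (adjusted p = 0.0551). Without mLN replicate 2 its log2 fold change was -3.25. Of its 50-base stretches 40.6% are unique. The other 5 tested H2B genes were not called. Hist2h2be, which lies on chromosome 3 from 96221119 to 96223738, was at 6.44, 7.55 and 8.85 CPM in spleen and 9.54, 9.56 and 9.39 in mLN. All 3 mLN libraries were above all 3 spleen libraries, but the difference did not pass the test (adjusted p = 0.105, log2 fold change 0.32 with SE 0.162). It was the only tested histone gene with mLN wholly above spleen, and 13 were wholly below. Of all genes tested 25.5% were wholly above and 27.5% wholly below. Hist1h2bg stood at 2.88 ± 0.651 and 2.52 ± 0.134 CPM and Hist3h2ba at 1.97 ± 0.930 and 2.23 ± 1.07 CPM in spleen and mLN.

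H3 could be followed only thinly, since 3 of its 12 genes were tested. Hist1h3a was at 1.04, 1.28 and 1.67 CPM in spleen and 0.734, 0.394 and 0.324 in mLN, with no overlap (adjusted p = 0.0227, log2 fold change -1.43 with SE 0.524). Without spleen replicate 2 or 3 or mLN replicate 2 or 3 it was not called (adjusted p from 0.0645 to 0.129), and then no H3 gene was. Hist2h3b, from chromosome 3, was at 0.971 ± 0.202 CPM in spleen and 1.27 ± 0.171 in mLN (log2 fold change 0.39, adjusted p = 0.523). Hist1h3h, next in the class by TPM, was not tested and stood at 0.575 ± 0.331 CPM in spleen and 0.0810 ± 0.140 in mLN.

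All 8 tested H4 genes had fold changes below 0 and 3 of them were called lower, beside 23.8% of all genes tested. The call of Hist1h4i held under every alternative run, and those of Hist1h4d and Hist1h4h did not. Hist1h4i (chromosome 13, 22040636 to 22041362) was at 8.74, 8.53 and 8.85 CPM in spleen and 3.54, 5.29 and 5.02 in mLN. The spleen libraries were close together and all above mLN, with a log2 fold change of -0.91 (SE 0.189, adjusted p = 8.65e-05). Hist1h4d was at 2.47, 2.32 and 1.79 CPM in spleen and 0.534, 0.619 and 1.70 in mLN (log2 fold change -1.25, adjusted p = 0.0205). The offset for effective length ended that call (adjusted p = 0.0777) at the same fold change of -1.25, as did leaving out spleen replicate 1 or 2 or mLN replicate 1 or 2 (adjusted p from 0.0765 to 0.0925). Without mLN replicate 3 its log2 fold change was -1.91. Hist1h4h fell narrowly (log2 fold change -1.25, adjusted p = 0.0439), and its call ended without any 1 of the 6 libraries (adjusted p from 0.0599 to 0.177), by DESeq2 (0.063), with no filter (0.092) and with the offset (0.0543). Hist1h4n, the H4 gene with the highest TPM, was at 4.54, 7.92 and 4.54 CPM in spleen and 1.07, 3.66 and 3.97 in mLN (log2 fold change -0.97, adjusted p = 0.0673), and it was called lower when low genes were kept in the fit (adjusted p = 0.000512) and without mLN replicate 3 (adjusted p = 0.0448). It shares 83.2% of its 50-base stretches with Hist1h4m, which held counts only in mLN replicate 1, where Hist1h4n was lowest. Summed, the pair was at 5.67 ± 1.95 CPM in spleen and 3.19 ± 1.10 in mLN. Hist1h4b was at 1.47 ± 0.918 CPM in spleen and 1.34 ± 0.831 in mLN, and Hist4h4, the only member on chromosome 6, at 0.735 ± 0.220 and 0.605 ± 0.175.

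**Figure D3:**
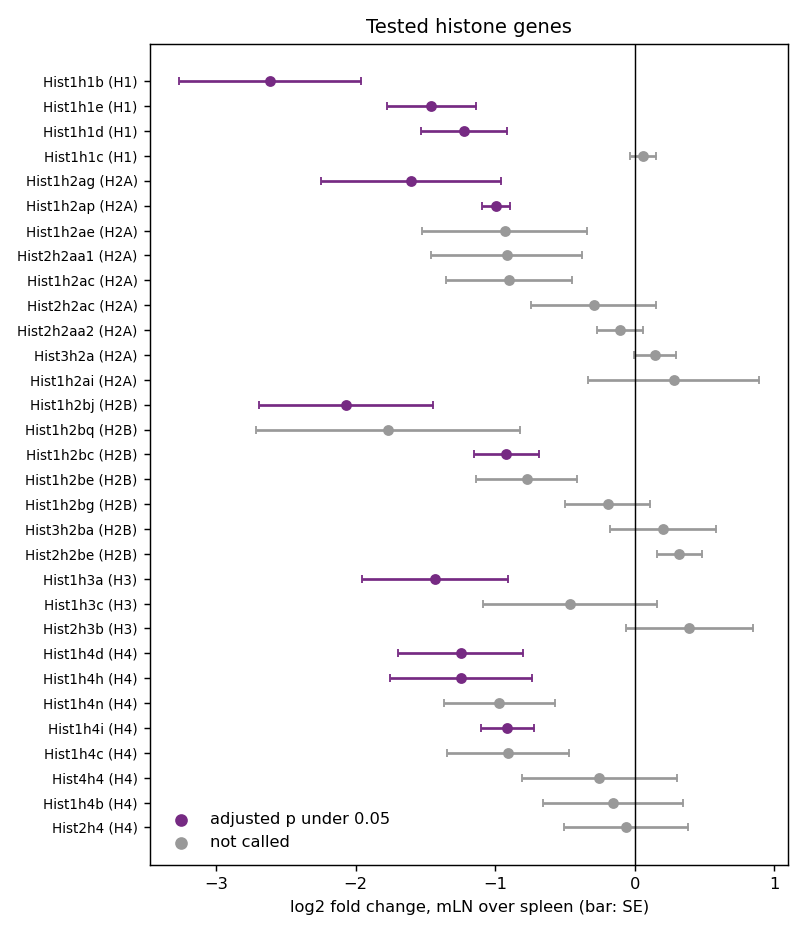
Fitted log2 fold change (mLN over spleen, bar SE) of the 31 tested histone genes by class, with genes at an adjusted p under 0.05 in purple. The 11 called genes all lie to the left of 0, from -2.62 to -0.91.

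All 11 called genes belong to the Hist1 cluster on chromosome 13, where 22 of 56 genes were tested. Of all genes tested 23.8% were called lower and 21.8% higher, or 45.5% in either direction. With only 9 tested genes elsewhere, an absence of calls among them was not tested against that share. Of the 9 tested genes of the Hist2, Hist3 and Hist4 loci none was called by edgeR in either direction, none had an unadjusted p under 0.05 and DESeq2 called none, and 4 of the 9 had a higher mean in mLN. The 56 Hist1 genes summed to 250.9 ± 8.93 CPM in spleen and 138.4 ± 13.3 in mLN, while the 10 Hist2 genes summed to 25.3 ± 1.22 and 24.8 ± 4.18 CPM and the 3 Hist3 genes to 11.6 ± 1.82 and 12.8 ± 1.40 CPM. Hist1h2ap alone held 165.8 CPM of the Hist1 sum in spleen and 83.3 CPM in mLN, and the sum without it was not computed. Within Hist1 the genes form 2 blocks and 1 distant pseudogene. The block of 24 genes from 21715763 to 22043676, which holds Hist1h2ap, had a log2 ratio of -1.01. The block of 31 genes from 23531050 to 23934851, which holds Hist1h1c, had -0.46. Whether the loci differ in their response was not tested.

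The fall was also uneven between genes with long and short annotated 3′ UTRs. The 28 long genes summed to 85.6 ± 2.16 CPM in spleen and 70.7 ± 0.432 in mLN, a log2 ratio of -0.28. The 42 short genes summed to 202.9 ± 11.04 and 105.9 ± 11.03 CPM (-0.94), and without Hist1h2ap to 37.0 ± 4.39 and 22.7 ± 1.68 CPM (-0.71). By gene the split was less clear, with 5 of 17 tested long genes and 6 of 14 tested short genes called lower, beside 23.8% of all genes tested, and medians of -0.90 and -0.94. The 6 tested genes with fold changes above 0, none of them called, were the long genes Hist1h1c, Hist2h2be, Hist3h2a and Hist3h2ba and the short genes Hist1h2ai (0.28) and Hist2h3b (0.39). The 17 genes with a polyadenylation signal at a transcript end summed to 62.1 ± 2.75 CPM in spleen and 58.0 ± 1.84 in mLN, with overlap. The 53 others summed to 226.4 ± 12.8 and 118.6 ± 11.7 CPM, with none. Hist1h2ap alone held 165.8 CPM of the 53-gene sum in spleen and 83.3 in mLN. Hist1h1c, also a long gene, held 23.9 and 24.9 CPM of the 17-gene sum. These 2 sums were not computed without Hist1h2ap and Hist1h1c.

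**Figure D4:**
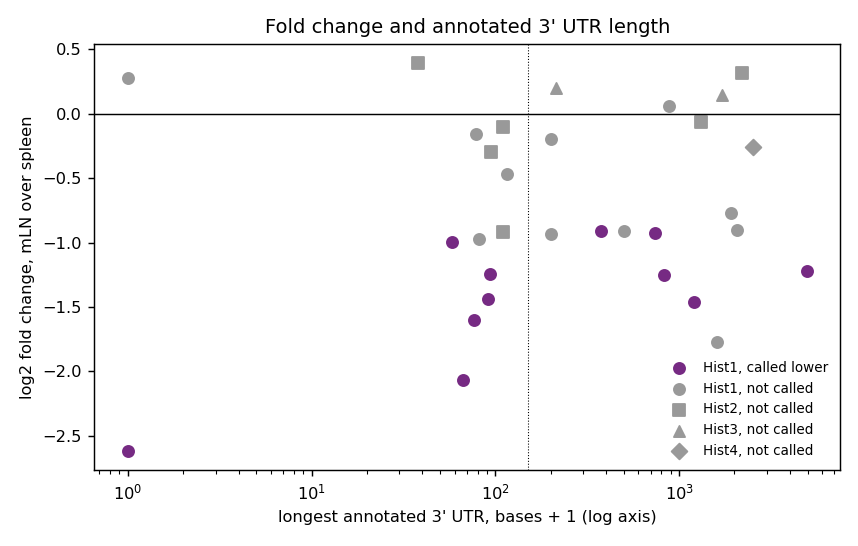
Fitted log2 fold change of the 31 tested genes (mLN over spleen) against the longest annotated 3′ UTR (bases + 1, log axis), with shape by locus, purple for called genes and a dotted line at 150 bases. Called genes lie on either side of the line, and genes above 0 include Hist1h1c, Hist2h2be and Hist3h2a at the right.

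The 39 genes that were not tested summed to 10.3 ± 0.335 CPM in spleen and 4.79 ± 0.900 in mLN. Among them 25 had a lower and 7 a higher mean in mLN. Those with spleen counts and none in mLN were Hist1h1t, Hist1h2ab, Hist1h2ad, Hist1h2af, Hist1h2ah and Hist1h3b. Hist1h2ad, Hist1h2af and Hist1h2ah were also at 0 in 1 spleen library, so their tissues overlapped, and Hist1h1t was at 0 in 2. Hist1h3b and Hist1h2ab had counts in all 3 spleen libraries. Both were picked because mLN was at 0, so the folds that follow describe the counts and are no test. With mLN set to a floor of 3 counts over its libraries, Hist1h3b was 4.24-fold lower in mLN and Hist1h2ab 3.98-fold. These folds dropped to 2.65 without spleen replicate 2 and to 2.54 without spleen replicate 3. They take the spleen totals of 14.26 and 13.39 expected counts as exact. Of their 50-base stretches 39.6% and 42% are unique, so these values too depend on how shared reads were assigned. The floor covers counting error in mLN only.

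Promoters of histone genes carry short motifs that are known to differ by class. A promoter from each of 4 classes is shown, each from a gene that fell in mLN. RefSeq's promoter table (GRCm38.p6) held 62 of the 70 genes. The 150 bases before the RefSeq start are printed in gene direction, and capitals mark a match on either strand to any of 4 motifs: the CCAAT box (the letters CCAAT), the TATA box (the letters TATAAA), the H1 box (the letters AAACACA) and the octamer (the letters ATTTGCAT).
Hist1h2ap (chr13:21833476-21833625, - strand): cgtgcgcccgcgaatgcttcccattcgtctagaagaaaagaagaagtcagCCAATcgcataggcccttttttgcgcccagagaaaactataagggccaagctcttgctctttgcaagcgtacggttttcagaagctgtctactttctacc
Hist1h1e (chr13:23622559-23622708, - strand): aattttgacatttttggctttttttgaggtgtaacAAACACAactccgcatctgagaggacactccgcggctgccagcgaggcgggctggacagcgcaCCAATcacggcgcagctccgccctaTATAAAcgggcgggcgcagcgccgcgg
Hist1h2bj (chr13:22043048-22043197, + strand): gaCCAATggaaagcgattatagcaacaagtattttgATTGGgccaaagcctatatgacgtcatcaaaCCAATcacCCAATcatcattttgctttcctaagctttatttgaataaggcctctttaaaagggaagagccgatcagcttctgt
Hist1h4i (chr13:22041363-22041512, - strand): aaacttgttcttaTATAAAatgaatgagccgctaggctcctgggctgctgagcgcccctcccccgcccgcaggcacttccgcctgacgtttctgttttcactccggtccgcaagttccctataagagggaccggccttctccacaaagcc

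Over the whole 300-base window, CCAAT was present in all 50 promoters of the H1, H2A, H2B and H3 genes and in 3 of 12 H4 promoters, against 37.9% of all 27025 promoters. AAACACA, an element described in H1 promoters, was in 5 of 6 H1 promoters, against 7.1% of all. It was also in 2 of 18 H2A and 2 of 16 H2B promoters, and in none of the 22 H3 and H4 promoters. ATTTGCAT, the octamer described in H2B promoters, was in 6 of 16 H2B and 7 of 18 H2A promoters and in none of the H1, H3 and H4 promoters, against 1.8% of all. TATAAA was in 35 of the 62 promoters (56.5%, against 14.2%). Motifs were searched separately and their matches may overlap. Windows of neighbouring genes can overlap too, as for Hist1h2ae and Hist1h2bg, which both match the octamer. Either strand was matched, so 1 site can count for both genes, and the counts above are not all of separate sites. A match describes letters in a window and not the binding of a factor.

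The histone genes outside the clusters, the replacement and variant genes, are mostly known to give polyadenylated RNA, and many are expressed outside the phase of DNA copying too. Of the 16 on the list 10 were tested, 7 fell and none rose, beside 23.8% and 21.8% of all genes tested, with a median log2 fold change of -0.25. None was higher at an unadjusted p under 0.05, and DESeq2 called none higher. H3f3a, which encodes H3.3, was at 657.7 ± 8.39 CPM in spleen and 495.7 ± 1.44 in mLN (log2 fold change -0.41, adjusted p = 9.45e-17). Its partner gene H3f3b had a log2 fold change of -0.23, H2afz, of the variant H2A.Z, one of -0.21, and H2afx, of the DNA damage variant H2A.X, one of -0.50. Cenpa, the H3 variant of centromeres, had -0.55, and H1fx was the lowest at -3.09, from 3.60 ± 0.455 to 0.408 ± 0.209 CPM. The macroH2A gene H2afy (0.04) and the linker gene H1f0 (-0.18) were not called. Per length, clustered histone genes made up 40.2 ± 2.41 TPM per 100 TPM of this list in spleen and 25.7 ± 2.32 in mLN, with no overlap. Hist1h2ap carried most of that gap in CPM: the ratio per 100 CPM of the list was 15.5 ± 0.845 in spleen against 11.4 ± 0.597 in mLN with it, and 6.604 ± 0.396 against 6.01 ± 0.0970 without it. For the long 3′ UTR genes it was 4.61 ± 0.140 against 4.55 ± 0.0396, and the tissues overlapped.

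A list of 20 factors tied to histone RNA 3′ ends was also read, and not all of them, Npat for one, make the stem-loop end. Of the 20, 4 rose and 2 fell, beside 21.8% and 23.8% of all genes tested, with a median log2 fold change of -0.00. That balance turned with the scaling, to 2 higher and 5 lower by library total alone and to 4 and 4 by upper-quartile factors. Slbp fell from 85.3 ± 4.92 to 66.5 ± 2.88 CPM (log2 fold change -0.36, adjusted p = 1.01e-06), and Cpsf2, a subunit of the cleavage complex, had -0.40. Xrn2, an exonuclease of transcript ends, had 0.23 and Ncbp1, of the cap-binding complex, 0.20, a call that the offset for effective length ended (adjusted p = 0.0595) at a log2 fold change of 0.21. Npat, the coactivator of histone gene transcription (0.08), Lsm11, of the U7 particle (-0.01), and Casp8ap2 (0.09) were not called. Of 21 histone chaperone genes 5 rose and 7 fell (median -0.02), beside 21.8% and 23.8% of all genes tested. Chaf1a, of the complex that loads H3 and H4 onto new DNA, had -0.91 and Asf1b, another H3 and H4 chaperone, -0.62. Daxx, which handles H3.3, had 0.59, the importin gene Ipo4 had 0.51, and Nasp was not called (-0.10).

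Genes of DNA replication fell in mLN beside the histone genes, 25 of 28 with none higher, beside 23.8% lower and 21.8% higher among all genes tested, and a median log2 fold change of -0.71. By an unadjusted p under 0.05 and by DESeq2 none of them was higher either. The origin-licensing gene Cdc6 had -1.67, the cyclin gene Ccna2 -1.50 and Pcna, the sliding clamp, -0.23. All clustered histone genes stood at 13.3 ± 0.566 CPM per 100 CPM of this list in spleen and 11.5 ± 0.752 in mLN, with no overlap. Without Hist1h2ap the ratio was 5.65 ± 0.307 in spleen and 6.06 ± 0.259 in mLN, and the ranges overlapped. The long 3′ UTR genes stood at 3.94 ± 0.107 and 4.59 ± 0.119, higher in all mLN libraries. The short ones without Hist1h2ap stood at 1.70 ± 0.207 and 1.47 ± 0.140, a lower mean in mLN with overlap. Among the long genes, Hist1h1c alone held 23.9 of 85.6 CPM in spleen and 24.9 of 70.7 CPM in mLN. The ratio of the long genes without Hist1h1c was not computed.

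The RNA levels of cell type markers differed as well. Cells were not counted here, and the part of cell make-up in the histone values was not tested. For reading the marker counts, 23.8% of all genes tested were lower in mLN and 21.8% higher. All 9 erythroid precursor markers used were lower in mLN, with a summed level of 1722 to 1774 CPM in spleen and 74.7 to 83.5 in mLN, and Car1 and Rhag at 0 there. All 8 blood progenitor markers were lower, at 313.1 to 317.8 CPM in spleen and 16.4 to 18.3 in mLN, with Elane, Gfi1b and Ctsg at 0. Of 6 germinal-centre B-cell markers 5 were lower (118.7 to 127.6 and 78.6 to 88.8 CPM), as were 6 of 7 plasma-cell markers, all 7 neutrophil markers and all 8 pan-B markers (5893 to 6030 and 3415 to 3480 CPM). All 8 pan-T markers were higher, at 1132 to 1158 CPM in spleen and 2336 to 2375 in mLN.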

How the data were processed

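The 3 spleen and 3 mLN libraries of polyA RNA were grouped by their labels. Per the submitters' processing notes, STAR, RSEM and build mm10 were used; the versions, annotation and strand setting used are not given here by any source, so antisense and overlapping genes cannot be told apart with certainty. The authors deposited, per the file headers, an expected count per gene (an estimate that splits shared reads and need not be whole), a TPM value and gene lengths. All histone gene lengths matched GENCODE M21 (GRCm38), which gave names and 1-based coordinates for 55227 of 55487 genes.

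Expected counts were rounded, filtered with filterByExpr (minimum count 10), scaled by TMM and tested over all 14427 genes kept with edgeR 4.0.16 in R 4.3.3 (glmQLFit and glmQLFTest), tissue being the only term. P-values were adjusted by Benjamini-Hochberg, and calls were made under 0.05. SE is the fold change divided by the root of F. TPM was used for levels between genes. The scripts were tested on simulated data. The genes, lists and rules were chosen with earlier results of these data known. Genes were named by a rule: in each class the 3 highest by TPM and, of called genes of at least 1 CPM, up to 3 rises and 3 falls; from each companion list up to 2 each way; and a fixed set; histone genes could also be named for position, sequence or lack of counts. Hist1h1a, Hist1h4m and the genes listed at 0 in mLN were chosen after their values were seen. Alternatives were other scalings, DESeq2 1.42.0, other filters, an effective-length offset, a replicate block, no rounding and leaving out each library. A gene of the erythroid marker list is not reported here and was left out of that list.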

Additional observations from a re-analysis of the deposited data

How the results depend on the processing

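No called gene among those named changed direction. Of the named genes without a call, Hist1h4b and Hist3h2ba changed sign when some libraries were left out, Lsm11 then and with the effective-length offset, Casp8ap2 and Npat with that offset, and H2afy by library total alone. The count of lower histone genes was 8 to 13 when each library was left out, and 9 with DESeq2, 8 with the stricter filter, 8 with the effective-length offset and 11 under each other scaling and with TMM factors computed without the histone genes (chosen after seeing the data). With no filter on low counts, which tested 63 histone genes, 20 were lower and 1 higher, Hist1h4m, whose counts lay in 1 library; 10 of the 11 were kept. In that fit 5 H2A, 5 H2B and 3 H3 genes were lower and 1 H4 gene higher. By class, DESeq2, the stricter filter and the effective-length offset each left 1 H2A gene lower, the stricter filter left 1 H2B gene, and the offset 1 H4 gene. Leaving out each library gave 1 to 3 lower H2A, 2 to 4 H2B, 0 to 1 H3 and 1 to 4 H4 genes, and 3 H1 genes each time. The summed log2 ratio of all histone genes then ranged from -0.74 to -0.66. Among 3′ end factors, 2 were higher and 5 lower by library total alone, 4 lower by upper-quartile factors and 1 higher with the offset, and 3 chaperones were higher with the offset. Over all 14427 genes the median log2 fold change was -0.0514 by library total alone and -0.0148 by upper-quartile factors. It was -0.0055 with the offset and -0.0018 in the main fit. The cause of the shifts in these counts was not tested. Same-numbered libraries did not deviate together (correlations 0.03, 0.03 and -0.01), so the numbers are not taken to pair them; with the replicate block 11 histone genes were lower, 9 of them the same, with Hist1h4n and Hist2h2aa1 in place of Hist1h2ag and Hist1h4h. The low counts limit H3 and most single genes.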

Other observations

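The stem-loop shape was also found after the stop codon of 36 genes outside the clusters. H2afx is among them, a variant gene whose RNA is known in a stem-loop and a polyadenylated form, and its level was 72.0 ± 2.71 CPM in the spleen libraries against 50.8 ± 2.80 in those of mLN (SD over 3 libraries). Others are Cd209b, Dbp and Tal1, named here as examples chosen after the list was seen, and a match of this shape in them is a description of letters only. Of the 64 histone genes with any count, 17 had whole-number counts (within 0.005) in all 6 libraries, among them Hist1h1c, Hist1h1d, Hist1h1b, Hist1h4d and Hist2h2be.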
